A study of Mus musculus with 2 samples.

Results

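The 8 genes described here belong to the uptake, intracellular binding and resynthesis of lipid in the absorptive cell: Cd36 and Slc27a4 (fatty acid uptake), Fabp1, Fabp2 and Fabp6 (intracellular binding, for Fabp6 mainly of bile acids), and Mogat2, Dgat1 and Dgat2 (triglyceride resynthesis). They were chosen by name, and each was represented by the brightest probe set annotated to that gene alone. All 8 were among the 17305 genes measured, each with 1 probe set. Expression was compared between 1 array of grafted mouse small intestinal epithelium and 1 array of control mouse colonic epithelium. The graft came from small intestinal cells of EGFP-transgenic mice on a C57BL6 background, which were kept for 7 days as organoids, that is, as epithelial cultures containing stem cells. These organoids were placed into the lumen of the colon of C57BL6 recipients, and the epithelium that grew there was collected at 4 weeks. The control was colonic epithelium of a C57BL6 mouse, and both epithelia were cut out by laser microdissection, pooled over serial sections and amplified from 4.33 ng of RNA. Per the design text, each array carried the specimen of its kind with the highest RNA integrity. The ages of the mice are not given in the labels, and ungrafted small intestine and the recipients' own colon were not analysed here.

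Fat in the intestinal lumen is split into fatty acids and monoacylglycerol. Inside the enterocyte, the absorptive cell of the small intestine, fatty acids are bound by small cytosolic carriers and activated with coenzyme A. Triglyceride is then rebuilt at the endoplasmic reticulum, by a route that starts from monoacylglycerol or by the general route from glycerol phosphate, and is either stored in droplets or packed with apolipoprotein B into chylomicrons. Absorption of long-chain fat is a function of the small intestine, above all of its proximal part, and not of the colon.

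All values are log2 expression levels as deposited, and every difference is the graft value minus the colon value. With 1 array per group no test was possible, no value has an error between animals, and each number describes these 2 samples. The only error that the table holds is the spread between probe sets of 1 gene. It was taken over 586 genes with a pair of probe sets at or above the median level. The gap between the differences of the 2 probe sets had an SD of 0.48 over these genes. The median of all gene values was 5.48. Values under the 20th percentile of an array, 4.75 for the graft and 4.74 for the colon, were treated as dim. This limit was a choice. No detection calls came with the values, so where signal and background separate is not known.

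In the graft, 5 of the 8 genes had a level at least 2-fold above the colon, 1 lay at least 2-fold below it and 2 lay within 2-fold. Such a positive difference was found for 1.93% of all 17305 genes and a negative one for 3.09%, and among the 9392 genes that reached the median level on at least 1 array these shares were 3.55% and 5.68%. At least 4-fold positive differences were found for 3 of the 8 genes and negative ones for 0, against 1.1% and 1.37% of those 9392 genes. The median difference of the 8 genes was 1.18, against 0 over all genes, and their differences ran from -1.32 for Fabp6 to 5.67 for Fabp1. Cd36 was the 1 member that did not reach the median level, with 5.475 as its higher value against a median of 5.477, so 7 of the 8 passed that filter.

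**Figure D1:**
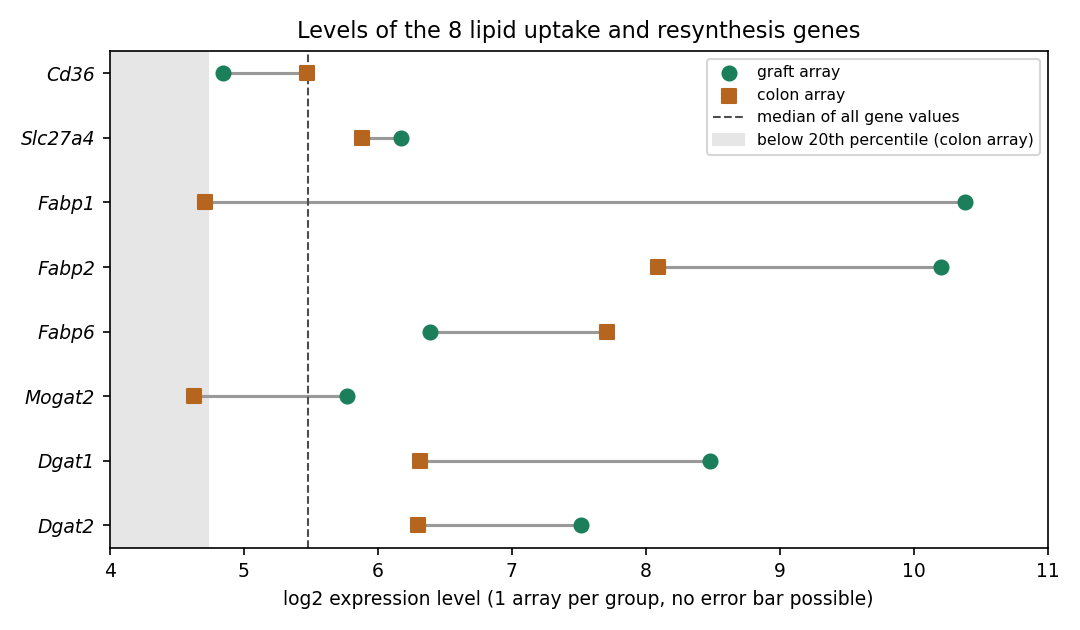
Log2 expression level of each of the 8 genes (rows) on the graft array (circles) and the colon array (squares), joined by a line; the dashed line is the median of all gene values, 5.48, and the grey area lies below the colon array's 20th percentile, 4.74. Fabp1 has the longest line, from 4.71 to 10.38, and for Cd36 and Fabp6 the colon value is the higher one.

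The promoters of the 3 binding proteins are shown because these genes, members of 1 protein family, differed in opposite directions. Each sequence runs 5′ to 3′ on the strand of the gene, from 250 bases before to 50 bases after the start site, and is taken from RefSeq (GRCm38.p6). Capitals mark letter matches, on either strand, to the motifs listed after the sequences. Fabp1 lies at chr6:71199629-71199928 on the plus strand, Fabp2 at chr3:122894822-122895121 on the plus strand and Fabp6 at chr11:43601513-43601812 on the minus strand.
Fabp1: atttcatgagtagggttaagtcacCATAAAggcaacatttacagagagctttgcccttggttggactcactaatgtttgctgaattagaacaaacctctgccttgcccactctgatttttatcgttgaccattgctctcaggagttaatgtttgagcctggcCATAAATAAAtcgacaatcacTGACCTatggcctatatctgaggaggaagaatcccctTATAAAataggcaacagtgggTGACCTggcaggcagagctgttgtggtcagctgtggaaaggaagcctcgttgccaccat
Fabp2: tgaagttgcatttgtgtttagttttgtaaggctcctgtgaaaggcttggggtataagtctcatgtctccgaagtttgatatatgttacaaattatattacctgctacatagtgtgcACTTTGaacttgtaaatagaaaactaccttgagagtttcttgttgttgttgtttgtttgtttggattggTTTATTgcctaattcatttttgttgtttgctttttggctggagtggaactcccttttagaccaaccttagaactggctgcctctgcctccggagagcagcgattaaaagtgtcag
Fabp6: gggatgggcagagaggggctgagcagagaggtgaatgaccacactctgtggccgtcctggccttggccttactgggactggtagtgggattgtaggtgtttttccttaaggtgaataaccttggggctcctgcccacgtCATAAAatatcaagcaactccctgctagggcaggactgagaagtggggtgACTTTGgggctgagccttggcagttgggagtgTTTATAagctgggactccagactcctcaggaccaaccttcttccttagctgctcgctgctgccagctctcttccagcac

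The motifs searched were TTTATG and TTTATT for the CDX factors of intestinal epithelium, TGATAA and AGATAA for GATA factors, CAAAGT and the longer CAAAGTCCA for HNF4, AGGTCA for the repeat unit bound by nuclear receptors, and TATAAA for the TATA box. RefSeq promoters were matched for 5 of the 8 genes: these 3, Cd36 and Slc27a4. A CDX spelling was found in all 5, against 27.6% of all 32851 promoters of this length in the table. CAAAGT was found in Fabp2, Fabp6 and Cd36, against 14.4% of all promoters, and AGGTCA in Fabp1 and Cd36, against 16.3%. TATAAA was found in Fabp1 and Fabp6, against 13.6%. Neither GATA spelling was found in the 5 windows, and 18.6% of all promoters hold at least 1 of them. CAAAGTCCA, which 0.475% of all promoters hold, was not found in them either.

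In the Fabp1 promoter the CDX spellings overlap each other between positions -88 and -79, a further one lies at -226 to -221, and AGGTCA occurs at -67 to -62 and at -9 to -4, all on the opposite strand. A TATA box spelling lies at -30 to -25 on the strand of the gene. In Fabp6 the same letters lie at -29 to -24 on the opposite strand, with CAAAGT at -61 to -56 and a CDX spelling at -111 to -106. Fabp2 holds a CDX spelling at -65 to -60 and CAAAGT at -134 to -129. In Cd36 the CDX match at -232 to -227 overlaps the AGGTCA match at -228 to -223. These are matches of letters and not measured binding sites. The members with the highest and the lowest difference, Fabp1 and Fabp6, both hold a CDX and a TATA box spelling. Whether any of these matches bears on the differences was not tested.

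**Figure D2:**
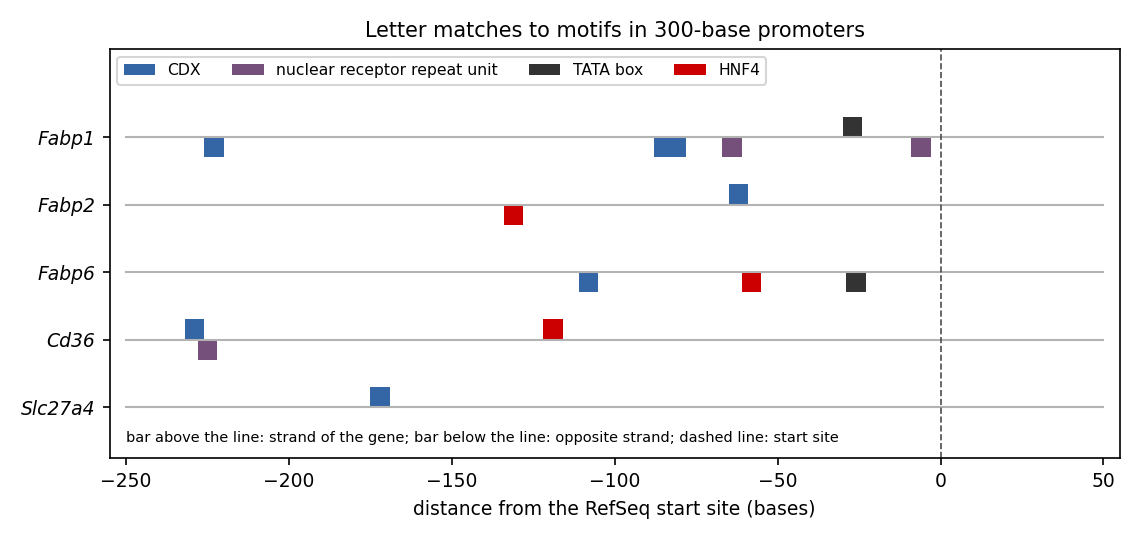
Positions of the letter matches in the 5 promoters (rows) relative to the RefSeq start site, in bases; bars above a line are on the strand of the gene, bars below it on the opposite strand, and colours name the factor. A CDX match occurs in every row, and TATA box matches occur in Fabp1 and Fabp6 only.

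At the step of uptake both members lay within 2-fold on the deposited scale. Cd36, a membrane protein that takes up long-chain fatty acids, had a level of 4.85 on the graft array and 5.48 on the colon array. The colon value was the higher one by 1.55-fold, a difference of -0.63, and the graft value lay close to the dim range. With each array's 1st percentile subtracted as background, an alternative chosen after seeing the data, the difference became -1.63, past 2-fold. Slc27a4, the fatty acid transport protein FATP4, which also activates very long-chain fatty acids, had a level of 6.18 on the graft array and 5.89 on the colon array. Its difference of 0.29 was smaller than the SD between probe sets. That SD comes from genes with several probe sets and is not the error of this difference.

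Cd36 is also expressed by endothelial cells, macrophages and adipocytes, whose markers were examined on the same arrays. Of 10 endothelial markers, 9 did not reach the median level on either array, and the mean level of all 10 was 5.07 on the graft array and 4.97 on the colon array. Egfl7 was the exception, with a difference of 1.23. Of 7 adipocyte markers 5 did not reach it, with means of 5.45 and 4.94, Cidec had a difference of 2.43, and Adipoq, the adipocyte hormone adiponectin, was dim on both arrays at 4.55 and 4.42. Macrophage and leukocyte markers had means of 5.54 and 5.28, and 0 of 10 differed by 2-fold. Their differences ran from -0.23 to 0.78. The shares past 2-fold over all 17305 genes were 1.93% upward and 3.09% downward, so a count of 0 is near that background. Fibroblast and smooth muscle markers had means of 5.91 and 6.33, with Lum lower in the graft by a difference of -1.76. The part of such cells in the value of Cd36 was not tested. In samples of many cells, fewer cells of a type and less RNA per cell cannot be told apart.

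Among the other genes of fatty acid uptake and activation, 2 of 10 had a positive difference of at least 2-fold and 0 a negative one. Over all 17305 genes these shares were 1.93% and 3.09%, so the downward count of 0 is near that background. Slc27a2, a relative of Slc27a4 with very long-chain acyl-CoA synthetase activity, had levels of 7.39 on the graft array and 5.57 on the colon array, a 3.52-fold difference. Acsl5, an acyl-CoA synthetase abundant in intestinal epithelium, had levels of 9.08 and 7.71, a 2.60-fold difference. The synthetase Acsl4 had a difference of 0.77 and Got2, which has also been described as a fatty acid binding protein of the plasma membrane, of 0.54. Slc27a1 had a difference of 0.14, and Cav1, which forms caveolae, of -0.46. The list median was 0.11 with Cd36 and Slc27a4 and also without them. So the relative of Slc27a4 and an activating enzyme had the larger differences at this step.

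The intracellular binding proteins showed the widest range. Fabp1, the liver-type fatty acid binding protein, which carries fatty acids and other lipids in the proximal small intestine and the liver, had a level of 10.38 on the graft array and 4.71 on the colon array. Its graft value was the higher one by 50.8-fold, and the gene ranked in place 5 of 9392 genes in the order of differences. The colon value was dim, so this fold and this place are not determined and depend on how background is treated. With background subtracted as described for Cd36, the difference became 8.02.

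Fabp2, the intestinal fatty acid binding protein, had a level of 10.20 on the graft array and 8.09 on the colon array. The graft value was higher by 4.32-fold, in place 90 of the order, and the colon array also held a clear signal for it. Fabp6, the ileal bile acid binding protein, belongs to the same family but mainly carries bile acids. Its level was 6.39 on the graft array and 7.71 on the colon array, which made the graft value lower by 2.49-fold and placed it 314 from the low end. Both values of Fabp6 were above the median level.

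Of the other 7 measured binding proteins 0 reached 2-fold. Over all 17305 genes 1.93% did so upward and 3.09% downward, so a count of 0 is near that background. Dbi, which binds acyl-CoA, had levels of 11.20 and 10.40, a difference of 0.81. Fabp5, whose sequence has close copies in the genome so that its value is uncertain, had a difference of 0.51. Scp2, a sterol and lipid carrier, had one of -0.20. Fabp4, the adipocyte form, was at 5.29 on the graft array and 5.31 on the colon array, and, like Fabp3, Fabp7 and Fabp12, it did not reach the median level on either array. In this list of binding proteins the differences past 2-fold were therefore those of Fabp1, Fabp2 and Fabp6, and the list median was 0.02.

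The ileal bile acid genes were set beside Fabp6. Slc10a2, the transporter that takes bile acids up from the ileal lumen, had a dim value of 4.43 on the graft array against 5.54 on the colon array, a 2.16-fold difference that did not stay past 2-fold with a floor at the 20th percentile. Slc51a, a subunit of the basolateral bile acid exporter, had the higher level in the graft, 7.32 against 5.13 or 4.57-fold, and its partner Slc51b had a difference of 0.53. Nr1h4, the bile acid receptor FXR, had a difference of 0.25. Fgf15, the ileal hormone that FXR induces, had 5.15 and 5.07, below the median level on both arrays. On the deposited scale, Fabp6 and the uptake transporter had the lower values in the graft, and the exporter subunit Slc51a the higher one.

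All 3 enzymes of triglyceride resynthesis had graft levels more than 2-fold above the colon. Mogat2, the intestinal monoacylglycerol acyltransferase that makes diacylglycerol from absorbed monoacylglycerol, had a level of 5.77 on the graft array and 4.63 on the colon array, a 2.21-fold difference. Its colon value was dim and its graft value stood only 0.29 above the median level. With the same subtraction, the difference of 1.14 became 3.25, whereas a filter at the 75th percentile of gene values left Mogat2 out.

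Dgat1, a diacylglycerol acyltransferase that completes triglyceride in the enterocyte, had a level of 8.48 on the graft array and 6.31 on the colon array, a 4.48-fold difference. Dgat2, which catalyses the same reaction but is unrelated to Dgat1 in sequence and belongs to the family of Mogat2, had levels of 7.52 and 6.30, a 2.33-fold difference. All values of these 2 genes lay above the median level, so their differences do not rest on a dim array. The differences ranked Dgat1 in place 85, Dgat2 in place 247 and Mogat2 in place 269 of 9392. The place of Mogat2 is not determined, because its colon value was dim. Dgat2 and Mogat2 are neighbours on chromosome 7, with 0 annotated RefSeq genes between them. Of the other acyltransferases of this list, Awat1 and Awat2, wax synthases of the skin, were dim on both arrays. The list median over its 5 measured genes was 1.14, which is the difference of Mogat2, and over the 2 genes other than the members it was 0.00093.

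**Figure D3:**
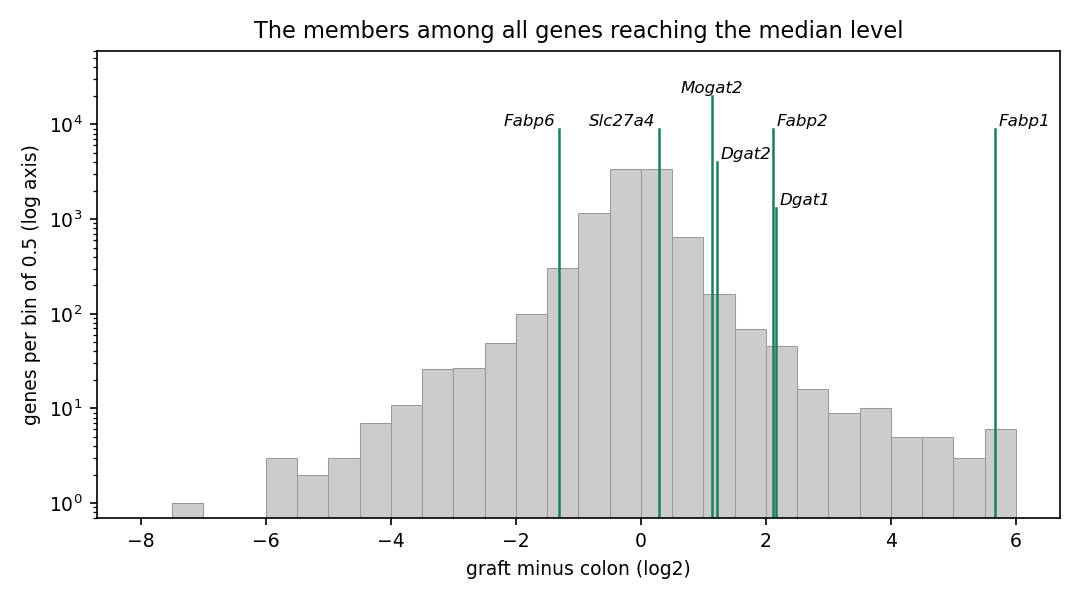
Histogram of the difference, graft minus colon in log2 units, for the 9392 genes reaching the median level (bars, log axis of gene counts), with lines at the 7 members that reached it. Fabp1 stands in the highest bin, Fabp2 and Dgat1 near 2.1, Dgat2 and Mogat2 near 1.2, Slc27a4 near the centre and Fabp6 on the negative side.

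For the members past 4-fold, the gene just above and the gene just below in the order of differences were looked up. These need not be the genes with the most similar differences. Apoa4, an apolipoprotein of chylomicrons, followed Fabp1 in the order with a gap of 0.055, and Chil4, a chitinase-like gene, stood before it with a gap of 0.26. Fabp2 stood between Gsdmc2 and Fn1, and Dgat1 between 1810046K07Rik and Car8, all within 0.0092. Because the colon value of Fabp1 was dim, its place in the order and its gaps are not determined. No likeness beyond the size of the difference can be measured with 2 arrays.

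The glycerol phosphate route makes diacylglycerol in most cell types. Its list held 14 measured genes with a median of 0.14, and 13 of them reached the median level. Of the list, 4 passed 2-fold upward in the graft and 1 downward, against 3.55% and 5.68% of all genes reaching the median level. The downward count is near that background. Lpin2 and Lpin1, phosphatidate phosphatases that release diacylglycerol, were higher by 4.16-fold and 3.19-fold, at 7.45 against 5.40 and at 6.57 against 4.90, while Lpin3 had a difference of 0.26. The colon value of Lpin1 lay not far above the dim range, so the size of its difference may depend on how background is treated. Gpat3, a glycerol phosphate acyltransferase, was 3.08-fold higher and Gpd1, which supplies glycerol phosphate, 2.20-fold. Agpat4, a lysophosphatidate acyltransferase, was 2.63-fold lower, at 5.47 against 6.86. Its relatives Agpat2, Agpat3 and Agpat5 had differences of 0.72, 0.47 and -0.56. Agpat1 had exactly the same value, 7.76, on both arrays, as did 4.35% of the genes reaching the median level. The acyltransferases Gpam and Gpat4 had differences of -0.30 and -0.11. Differences past 2-fold in the upward direction thus occurred at the first acylation, the phosphatase step and the supply of glycerol phosphate.

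Lipid droplet and lipolysis genes had a median of 0.11 over 18 genes, with 1 past 2-fold in each direction. Over all 17305 genes, the shares were 1.93% upward and 3.09% downward. Counts of 1 allow no reading about the list beyond these 2 genes. Cidec, which promotes droplet growth, had 7.41 in the graft against 4.98, a 5.40-fold difference. That colon value lay not far above the dim range, so the size of the difference may depend on how background is treated. Plin2, the main droplet coat protein of many cell types, had 6.16 in the graft against 8.16, which is 4.01-fold lower. Plin3, another coat protein, had a difference of 0.75, and Abhd5, the coactivator of the lipase Pnpla2, one of -0.72. Cideb, which takes part in the lipidation of apolipoprotein B particles, had a difference of 0.33. The droplet proteins Cidec and Plin2 therefore stood at opposite ends of this list.

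Genes of chylomicron assembly, the next step for the triglyceride made by Dgat1 and Dgat2, had a median of 2.44, and 6 of 9 exceeded the colon by at least 4-fold. Among all genes reaching the median level, as 8 of these 9 did, 1.1% were higher in the graft by at least 4-fold. Mttp, which loads lipid onto apolipoprotein B, was at 8.60 on the graft array and 4.74 on the colon array, and Apob itself at 10.08 and 7.36. The colon value of Mttp lay at the edge of the dim range, so the size of its difference depends on how background is treated. The chylomicron apolipoproteins Apoa4 and Apoa1 had differences of 5.61 and 5.55. Sar1b, a GTPase of the vesicles that carry chylomicrons, had a difference of -0.39. Among 4 luminal lipase genes, Pnliprp2 and the colipase gene Clps were higher by differences of 4.90 and 2.27. Of 5 lipid-sensing receptors, Ffar4, a receptor for long-chain fatty acids, had 4.96 in the graft against 6.25, which is 2.44-fold lower. The graft value of Ffar4 lay not far above the dim range, so this fold may depend on how background is treated. Of these 5 receptors, 0 passed 2-fold upward. The shares over all 17305 genes, to set beside the lipases and the receptors, were 1.93% upward and 3.09% downward. Such small receptor counts allow no reading about the receptors as a set.

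**Figure D4:**
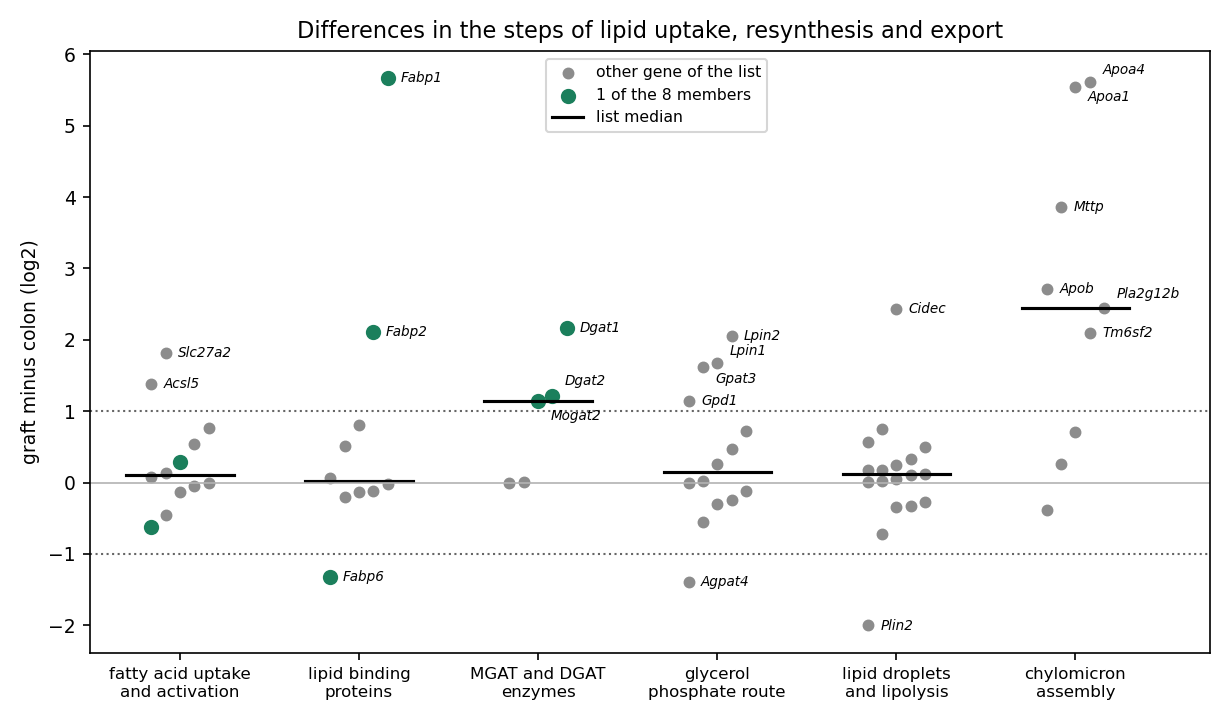
Difference, graft minus colon in log2 units, of every measured gene in 6 steps from uptake to export; green points are the 8 members, grey points other genes, black bars list medians, and dotted lines mark 2-fold. The chylomicron median, 2.44, lies above 2-fold, the acyltransferase median of 1.14 over 5 genes is the value of Mogat2, and those of the other 4 lists lie between 0.02 and 0.14.

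Transcription factors known to act on lipid genes were examined as a last list. Of 17 measured, 16 reached the median level. In the graft 3 passed 2-fold upward and 2 downward, against 3.55% and 5.68% of all genes reaching the median level. Gata4, a factor of the proximal small intestine, was 6.09-fold higher, Creb3l3, which acts on apolipoprotein genes, 4.09-fold, and Mlxipl, the carbohydrate-responsive factor ChREBP, 2.20-fold. Pparg, a nuclear receptor for fatty acids, and the coactivator Ppargc1a had differences of -1.04 and -1.05, just past 2-fold, and with quantile normalization neither stayed past it. Hnf4a had a difference of 0.06, Ppara of 0.07 and Cdx2 of 0.82. Over all 10 pathway lists, 92 genes other than the members were measured, of which 19 passed 2-fold upward in the graft and 6 downward, and the median difference was 0.11. Of these 92 genes, 64 reached the median level, and both counts come from those 64. The shares among all genes reaching the median level were 3.55% and 5.68%. The downward count of 6 is small, and whether it differs from that background was not tested. All of these lists were chosen with earlier results of these data known.

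The labelled tissues were described by marker genes, which were chosen with earlier results of these data known and so give no independent check of the labels. All 12 general epithelial markers lay within 2-fold, with mean levels of 9.89 on the graft array and 9.66 on the colon array. Among 12 small intestinal enterocyte markers 6, with Alpi and Sis among them, passed 2-fold upward in the graft and 0 downward. Alpi and Sis each had a dim colon value of 4.52, so the size of their differences is not determined. Enpep and Anpep had negative differences within 2-fold, -0.62 and -0.09. Lct, lactase, did not reach the median level on either array, nor did Enpep. All 11 colonocyte markers passed 2-fold downward, from -7.23 for Car1, whose graft value of 4.51 was dim, to -1.15 for Car4. Among all 17305 genes, 1.93% passed 2-fold upward and 3.09% downward, and among those reaching the median level 3.55% and 5.68%. The absence of epithelial markers past 2-fold and the enterocyte downward count of 0 are near these backgrounds. The members therefore differed between samples whose enterocyte and colonocyte markers also differed, and their part in the members' values was not tested.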

How the data were processed

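Log2 expression values, 1 per probe set and array, were used as deposited by the authors, for 24074 probe sets. The log2 scale was read from the values (4.19 to 13.46), and whether arrays were centred is unknown. The sorted columns differed by at most 0.25. Software, background correction and normalization, not given in the sources used here, are unknown. No detection calls came with the values, and amplification of small RNA amounts, per the labels' protocols, can distort single transcripts.

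Probe sets were named through the platform annotation; 18904 had 1 gene symbol, and the brightest (highest mean) stood for each gene. A gene reached the median level if its higher value was at least 5.48. Differences were taken in Python 3.11.15 with pandas 2.3.3 and counted at 2-fold and 4-fold. The counting was tested on simulated data. With 1 array per group, no p-value was computed.

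The members and lists were chosen with earlier results of these data known. Genes named were the 8 members, the largest differences of each list (up to 4, and up to 2 in the opposite direction), the members' families and their neighbours in the order of differences. Other named genes (Fgf15, Nr1h4, Ppara, Hnf4a, Cdx2, Lct, Enpep, Adipoq, Cideb, Car4, Gpd1, Gpam, Gpat4, Awat1, Awat2) were chosen after their values were seen. Listed genes without a singly named probe set were not analysed here. Alternatives changed the scaling, probe set choice, floor, filter and fold.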

Additional observations from a re-analysis of the deposited data

How the results depend on the processing

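Under the planned changes of scaling, probe set choice and floor, the 32 recomputed member differences kept their direction and moved by at most 0.11. This is a weak check, because most of these values could hardly move. Each member has 1 probe set, so the probe set choice could not move any of them. Median centring shifts every gene by the same amount, and the floor can move only members with a dim value, Fabp1 and Mogat2. At a 4-fold threshold, 3 members were higher and 0 lower, and the shares among genes reaching the median level were 1.10% and 1.37%. Without a filter these shares at 2-fold were 1.93% and 3.09%, and with a filter at the 75th percentile 5.40% and 8.90%. Under that stricter filter Cd36, Slc27a4 and Mogat2 dropped out, so that the members at least 2-fold higher numbered 4 instead of 5 and the acyltransferases 2 instead of 3, and the median of the members that passed was 2.11. Under it, 0 lipid sensors and 1 ileal bile acid gene were 2-fold lower, and with a floor at the 20th percentile also 1 bile acid gene, since Slc10a2 was lost in both cases. The number of lipid transcription factors at least 2-fold lower was 1 with the mean of probe sets and 0 with quantile normalization. Subtracting each array's 1st percentile as background, an alternative added after seeing the data, gave differences of -1.63 for Cd36, 8.02 for Fabp1 and 3.25 for Mogat2, each of which has a value in or near the dim range. Moves were judged against the SD between probe sets, 0.48. No paired analysis was possible because each group has 1 array and no test was made. Precision is limited by the number of arrays.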
